A study of Mus musculus with 16 samples.

Results

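Paneth cells are secretory cells at the base of the small intestinal crypts. They store antimicrobial proteins and enzymes in granules and release them into the crypt lumen, where these proteins act on bacteria, on lipids and on the mucus. Alpha-defensins are the best known of these products, and the genes described here are 10 others: Lyz1, Ang4, Itln1, Mmp7, Mptx2, Pla2g2a, Pnliprp2, Clps, Habp2 and Nupr1. They were taken by name, with earlier results of these data known, from the 41740 genes listed for each library, and all 10 had enough reads to be tested. Of the 10, Nupr1 encodes a stress-induced nuclear protein that is not secreted, so it is described here as a gene of the list and not as a granule product.

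Libraries were made from total RNA of the whole ileal wall of 16 male C57BL/6J mice at 20 weeks of age, and the labels call them biological replicates. All mice were STAM mice, in which a low dose of streptozotocin at 2 days of age and a high-fat diet from 4 weeks give diabetes and steatohepatitis. Control-STAM-nonINS (n = 4, here nonINS controls) and Control-STAM-INS (n = 6, here INS controls) carried the genotype labelled Vilin-Cre(-); InsR-flox, and ieIRKO-STAM-INS (n = 6, here ieIRKO mice) carried Vilin-Cre(+); InsR-flox, in which Cre under the Villin promoter removes the floxed insulin receptor segment from intestinal epithelial cells only. From 6 weeks the INS controls and ieIRKO mice received insulin degludec, a long-acting insulin, in 2 daily injections that were raised to no more than 12 U/kg, while nonINS controls received saline. The comparison of INS with nonINS controls therefore addresses insulin treatment, and that of ieIRKO mice with INS controls addresses the epithelial receptor under the same treatment. In the latter, the presence of Cre and the loss of the receptor cannot be told apart. These libraries include no ieIRKO mice without insulin. The comparison of ieIRKO mice with nonINS controls differs in both insulin treatment and genotype. The 3 comparisons share their groups, so their values stand side by side and are not independent of each other.

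Between 13288018 and 22215382 reads were counted on genes per library. Levels are given in CPM, reads scaled so that libraries of different depth can be compared (TMM normalization), and fold changes are log2 values with their standard error (SE) from edgeR's quasi-likelihood test. A gene was called when its Benjamini-Hochberg adjusted p over the 15267 genes tested was under 0.05. The targeted gene, Insr, was no lower by total reads in the ieIRKO than in the INS control libraries (log2 fold change 0.10, adjusted p = 0.805 from edgeR). Both insulin-treated groups were lower than nonINS controls, at 62.7 ± 10.1 CPM (SD, n = 6) in INS controls and 67.2 ± 13.4 (SD, n = 6) in ieIRKO mice against 105 ± 12.3 (SD, n = 4), with log2 fold changes of -0.75 and -0.65 (adjusted p = 0.00275 and 0.00582 from edgeR). That count sums all exons and all cells of the wall, so it does not check the deletion in the epithelium, and groups are named below as labelled. By qPCR of the ileum, the study reported strongly reduced Insr message in ieIRKO-STAM mice. Fewer Paneth cells and less RNA per Paneth cell cannot be told apart in whole-wall RNA.

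The sequences below show where reads of the most abundant gene of the list can and cannot be told from its neighbour. Lyz1, the lysozyme of Paneth cells (chr10:117287797-117292868, minus strand, GRCm38), lies beside Lyz2, the lysozyme of macrophages (chr10:117277331-117282321, minus strand). Their coding sequences were identical at 422 of 444 bases. Coding bases 43 to 132 of the GENCODE M21 transcripts, in the part of the message that crosses from the signal peptide into the mature enzyme, hold 13 differences, which stand in capitals.
Lyz1: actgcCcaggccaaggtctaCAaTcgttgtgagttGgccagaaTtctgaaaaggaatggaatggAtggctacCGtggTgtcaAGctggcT
Lyz2: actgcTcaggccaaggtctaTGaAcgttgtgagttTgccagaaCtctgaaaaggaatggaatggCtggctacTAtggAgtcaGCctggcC
Elsewhere the genes are closer, with a longest identical coding run of 118 bases. Of all 50-base words of the Lyz1 transcripts, 16.1% also occurred in Lyz2. How reads that match more than 1 gene were counted is not given in the sources used here.

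The promoters of 3 genes are shown because these genes followed the 3 different patterns described below. Each is the 250 bases before the start site in RefSeq on GRCm38.p6, read along the gene's own strand. Lyz1 (chr10:117292869-117293118, minus strand) was lower in ieIRKO mice than in both control groups, Itln1 (chr1:171535295-171535544, minus strand) was higher in INS controls than in both other groups, and Mmp7 (chr9:7691840-7692089, plus strand) was called in no comparison. Capitals mark matches on either strand to a TATA box (TATAAA) or to the core bound by the intestinal CDX factors (TTTATNG).
Lyz1: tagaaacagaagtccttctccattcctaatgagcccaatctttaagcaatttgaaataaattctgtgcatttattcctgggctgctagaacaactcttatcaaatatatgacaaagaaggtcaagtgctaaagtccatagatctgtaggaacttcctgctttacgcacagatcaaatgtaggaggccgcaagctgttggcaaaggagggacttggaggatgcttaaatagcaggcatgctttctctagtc
Itln1: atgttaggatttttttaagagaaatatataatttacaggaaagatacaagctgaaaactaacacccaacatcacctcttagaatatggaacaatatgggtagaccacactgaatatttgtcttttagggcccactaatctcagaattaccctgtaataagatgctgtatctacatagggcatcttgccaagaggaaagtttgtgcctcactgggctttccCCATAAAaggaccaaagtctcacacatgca
Mmp7: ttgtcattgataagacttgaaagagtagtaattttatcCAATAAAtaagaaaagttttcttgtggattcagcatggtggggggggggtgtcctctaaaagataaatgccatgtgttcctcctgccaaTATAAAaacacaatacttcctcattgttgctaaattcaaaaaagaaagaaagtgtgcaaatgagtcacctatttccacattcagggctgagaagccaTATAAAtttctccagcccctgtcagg
Over the 300-base windows that also take in the 50 bases after the start, 8 of the 10 genes had an entry. Clps and Pla2g2a had none. TTTATNG was found in Itln1, Mmp7 and Mptx2 and in 10.9% of all 32817 promoters, and TATAAA in Mmp7 and in 13.6%. CTTTGA, the core bound by TCF/LEF factors, was found in Mmp7 and Pnliprp2 and in 5251 of the 32817 promoters, and CAGCTG, an E-box, in Lyz1 and Nupr1 and in 16.3%. GTAAACA, a forkhead core, and TGACGT, a core of cAMP and unfolded protein response elements, were found in none of the 8, against 3.65% and 7.51% of promoters. These matches are letters in a window and not binding sites.

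The 10 genes followed 3 patterns. Lyz1, Ang4, Clps and Nupr1 were lower in ieIRKO mice than in both control groups and passed the test in neither direction with insulin in the control genotype. Itln1 and Habp2 rose with insulin in the control genotype, and in ieIRKO mice they lay near the level of the mice without insulin. Mmp7, Mptx2, Pla2g2a and Pnliprp2 passed the test in no comparison. Between ieIRKO mice and INS controls, 5 of the 10 genes were called lower and 0 higher, where 0.183% of all tested genes were called lower and 0.0393% higher. With the replicate number of the labels as a block in the fit, and also without ieIRKO replicates 2 and 3, which are described below with the marker genes, 3 were called lower (Lyz1, Ang4 and Clps), and Itln1 and Nupr1 were not. The median log2 fold change was -0.80 over the 10 genes and 0.017 over all genes.

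**Figure D1:**
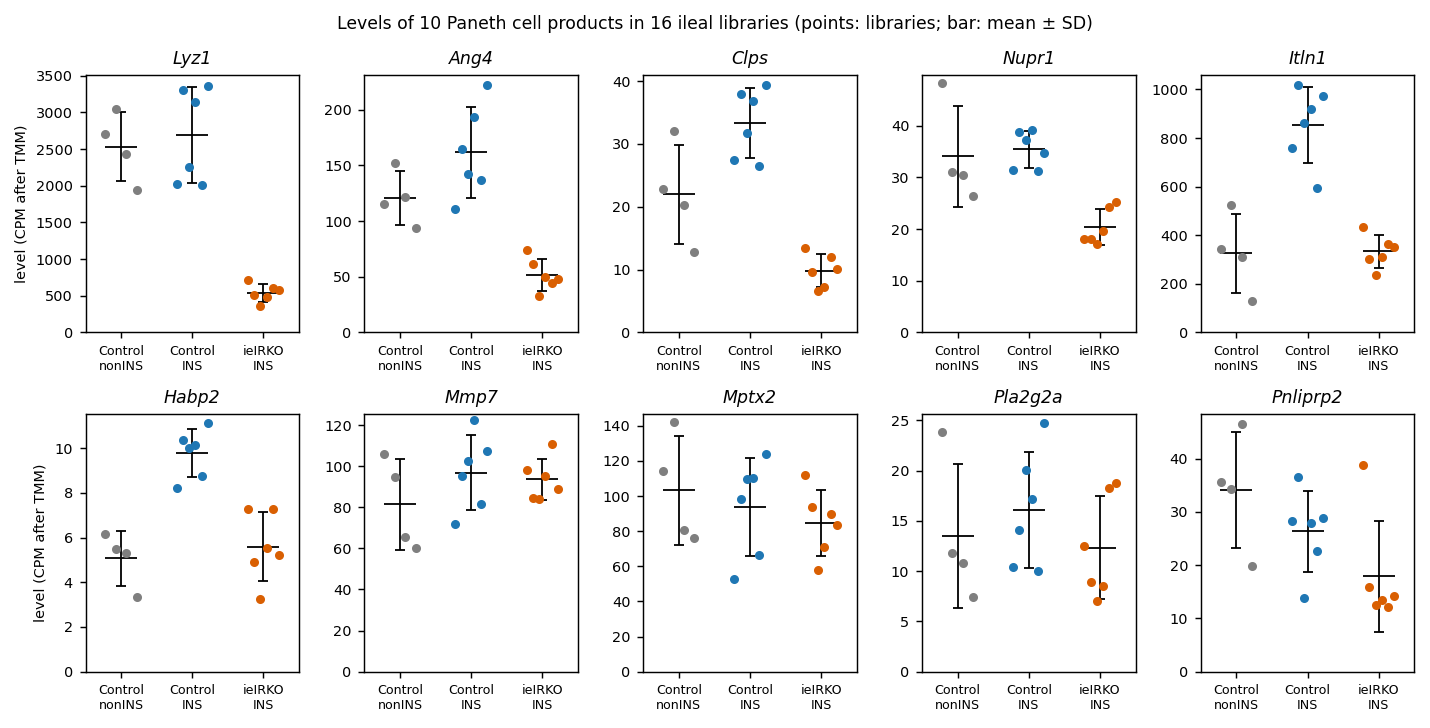
Level of each of the 10 genes in CPM (linear axes from 0) in the libraries of 4 nonINS controls, 6 INS controls and 6 ieIRKO mice. Points are libraries, and bars give the mean ± SD. All 6 ieIRKO points lie below all control points for Lyz1, Ang4 and Nupr1, while Itln1 and Habp2 are highest in INS controls and the points of Mmp7, Mptx2 and Pla2g2a overlap among the 3 groups.

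Lyz1 encodes the lysozyme that cuts bacterial cell walls. It stood at 2706, 3052, 2430 and 1937 CPM in the 4 nonINS control libraries. INS controls spanned 2014 to 3367 CPM for Lyz1, with a median of 2702. In ieIRKO mice, Lyz1 ran from 362 to 721 CPM with a median of 546. The highest ieIRKO library was thus below the lowest library of either control group, and the control groups overlapped. Against INS controls the mean was 4.95-fold lower (log2 fold change -2.31, SE 0.18, adjusted p = 1.25e-06 from edgeR), and against nonINS controls the log2 fold change was -2.22 (SE 0.19, adjusted p = 3.51e-06 from edgeR). Insulin in the control genotype gave 0.09 (SE 0.20, adjusted p = 0.832 from edgeR).

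Lyz2 is the gene whose reads could be counted for Lyz1. Its level was 68.2 ± 8.45 CPM (SD, n = 4) in nonINS controls and 68.4 ± 4.598 (SD, n = 6) in INS controls. In ieIRKO mice Lyz2 was at 211 and 202 CPM in replicates 2 and 3 and at 59.5 to 85.7 in the other 4, close to the 61.7 to 74.0 of INS controls. Its difference from INS controls was not called (log2 fold change 0.78, SE 0.28, adjusted p = 0.344 from edgeR). Its highest level was below the lowest level of Lyz1.

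Ang4 encodes an angiogenin of the ribonuclease A family that kills bacteria (chr14:51763878-51773590, minus strand). Ang4 stood at 115, 152, 122 and 93.5 CPM in the 4 nonINS control libraries. Its INS control levels ran from 111 to 222 CPM with a median of 153, and those of ieIRKO mice from 32.5 to 73.6 with a median of 49.1. All 6 ieIRKO libraries were below every control library. The mean was 3.13-fold lower than in INS controls (log2 fold change -1.64, SE 0.20, adjusted p = 0.000402 from edgeR), and the log2 fold change against nonINS controls was -1.22 (SE 0.21, adjusted p = 0.00179 from edgeR). With insulin in the control genotype it was 0.43 (SE 0.21, adjusted p = 0.229 from edgeR). Ang, the most similar paralog tested with 84.8% coding identity, gave 0.17 in ieIRKO mice against INS controls (adjusted p = 0.663 from edgeR). Ang5 and Ang6 had no read in any library, and Ang2 had at most 2.

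Clps encodes colipase, the cofactor that anchors pancreatic lipase to fat droplets (chr17:28558149-28560766, minus strand). Clps stood at 22.8, 32.0, 20.3 and 12.8 CPM in the 4 nonINS control libraries. INS control libraries held 26.5 to 39.4 CPM with a median of 34.2, and ieIRKO libraries 6.65 to 13.5 with a median of 9.84. All ieIRKO libraries were below all INS control libraries, but the highest overlapped the lowest nonINS control library. Against INS controls the mean was 3.38-fold lower (log2 fold change -1.75, SE 0.21, adjusted p = 0.000402 from edgeR). Against nonINS controls the log2 fold change was -1.15 (SE 0.22, adjusted p = 0.00361 from edgeR). The rise with insulin was not called (0.61, SE 0.22, adjusted p = 0.0939 from edgeR), and without nonINS control replicate 2 it was (0.85, adjusted p = 0.0209 from edgeR).

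Nupr1 encodes a small chromatin-bound protein that cells raise under stress (chr7:126623249-126630861, minus strand). Its 4 nonINS control values were 48.4, 31.0, 30.4 and 26.4 CPM. INS controls ran from 31.3 to 39.2 CPM for Nupr1 with a median of 35.9, and ieIRKO mice from 17.1 to 25.3 with a median of 18.8. The ieIRKO group overlapped neither control group, and nonINS control replicate 1 was the highest of all 16 libraries. Nupr1 was 1.74-fold lower in ieIRKO mice than in INS controls (log2 fold change -0.79, SE 0.14, adjusted p = 0.00926 from edgeR), and the value against nonINS controls was -0.74 (SE 0.15, adjusted p = 0.00418 from edgeR). The call against INS controls was lost with the replicate number as a block (adjusted p = 0.0625 from edgeR) and without ieIRKO replicates 2 and 3 (adjusted p = 0.117). The control groups differed by 0.06 (SE 0.15, adjusted p = 0.856 from edgeR).

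Itln1 encodes intelectin-1, a lectin that binds sugars of the bacterial surface (chr1:171518122-171535294, minus strand). Itln1 stood at 343, 526, 309 and 128 CPM in the 4 nonINS control libraries. In INS controls it ran from 593 to 1017 CPM with a median of 891, and in ieIRKO mice from 237 to 435 with a median of 332. Every INS control library was above every library of the other groups, and these 2 groups overlapped. Insulin in the control genotype raised Itln1 2.62-fold (log2 fold change 1.39, SE 0.29, adjusted p = 0.00615 from edgeR). In ieIRKO mice Itln1 was 2.56-fold lower than in INS controls (log2 fold change -1.36, SE 0.25, adjusted p = 0.0234 from edgeR) and differed from nonINS controls by 0.03 (SE 0.27, adjusted p = 0.952 from edgeR). The call against INS controls was near the threshold and was lost when any 1 of 9 of the 12 libraries compared was left out, with adjusted p from 0.0542 to 0.0864.

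Habp2 encodes a serine protease of plasma that binds hyaluronan and can cleave clotting factors (chr19:56287137-56320822, plus strand). It was the lowest gene of the list, with 53 to 228 reads per library. Of its 3381 words of 50 bases, 219 also occurred in Nrap, which overlaps it on the other strand. Nrap stood at 1.57 to 4.41 CPM, and since the strand setting of the counting is not given, reads of that stretch cannot be assigned. Habp2 stood at 6.16, 5.49, 5.31 and 3.32 CPM in the 4 nonINS control libraries, at 8.24 to 11.1 with a median of 10.1 in INS controls, and at 3.26 to 7.29 with a median of 5.38 in ieIRKO mice. The INS controls were above both other groups without overlap. With insulin Habp2 rose 1.93-fold in the control genotype (log2 fold change 0.95, SE 0.21, adjusted p = 0.00722 from edgeR). The difference between ieIRKO mice and INS controls was not called (-0.80, SE 0.18, adjusted p = 0.0971 from edgeR), although DESeq2 gave an adjusted p of 0.00479. Against nonINS controls the log2 fold change was 0.15 (SE 0.21, adjusted p = 0.673 from edgeR).

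Itln1 and Habp2 were the 2 of 10 genes called higher with insulin in the control genotype, with 0 called lower, where 3.73% of all tested genes were called higher and 6.76% lower. Of the 10, 8 had a positive log2 fold change and 3 had an unadjusted p under 0.05. The median log2 fold change was 0.26 over the 10 genes and -0.0043 over all genes. The share of all genes under that unadjusted limit is not given here, so the 3 have no background beside them. Against nonINS controls, ieIRKO mice had 4 of the 10 called lower and 0 higher, where 7.59% of all genes were called lower and 5.74% higher. The groups did not overlap for 2 genes that were higher with insulin (4.4% of all genes), for 6 that were lower in ieIRKO mice than in INS controls (0.406%) and for 3 that were lower in ieIRKO mice than in nonINS controls (4.76%). In the other direction 0 genes were free of overlap, where the shares of all genes were 6.23%, 0.439% and 3.8%.

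**Figure D2:**
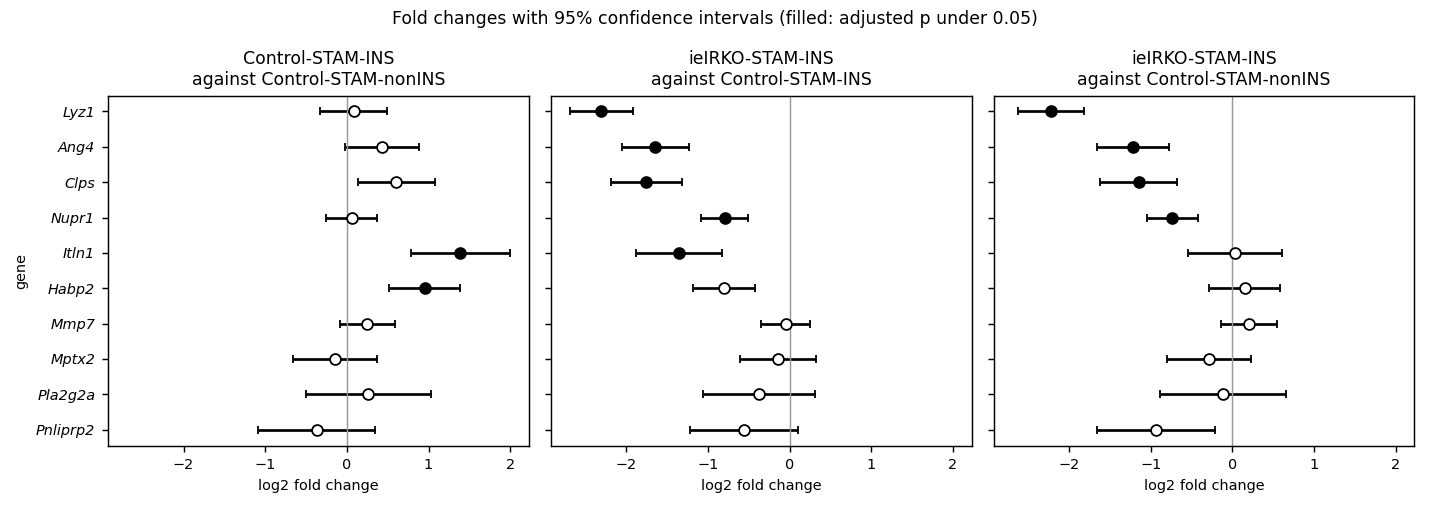
Log2 fold change of each of the 10 genes in the 3 comparisons (x axis), with the 95% confidence interval computed from edgeR's test statistic, and filled points where the adjusted p was under 0.05. In the middle panel all 10 points lie below 0 and 5 are filled, whereas in the left panel the 2 filled points, Itln1 and Habp2, lie above 0.

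Mmp7 encodes matrilysin, the metalloprotease that cuts mouse alpha-defensins into their active form (chr9:7692090-7699585, plus strand). The antisense gene AV064505 shares 75 of its 1019 words of 50 bases and had at most 1 read in any library. Mmp7 stood at 106, 94.7, 65.4 and 60.0 CPM in the 4 nonINS control libraries. It ran from 71.8 to 122 CPM with a median of 98.8 in INS controls, and from 84.3 to 111 with a median of 91.9 in ieIRKO mice. The 3 groups overlapped. Between ieIRKO mice and INS controls the log2 fold change was -0.05 (95% confidence interval -0.35 to 0.25, adjusted p = 0.922 from edgeR), an interval that leaves out a fall of the size seen for Lyz1, Ang4, Clps or Nupr1.

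Mptx2 encodes mucosal pentraxin 2, a secreted protein of the C-reactive protein family (chr1:173274382-173277777, minus strand). Mptx2 stood at 114, 142, 80.4 and 75.9 CPM in the 4 nonINS control libraries. INS controls spanned 52.8 to 124 CPM for Mptx2 with a median of 104, and ieIRKO mice 58.1 to 112 with a median of 86.8. Again the groups overlapped, and ieIRKO mice differed from INS controls by -0.14 (95% confidence interval -0.60 to 0.32, adjusted p = 0.845 from edgeR). Of the 745 words of 50 bases in Mptx2, 134 also occurred in Mptx1, whose level was at most 1.56 CPM.

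Pla2g2a encodes a secreted phospholipase that is toxic to bacteria and carries a natural frameshift in C57BL/6 mice (chr4:138831857-138835186, plus strand, annotated as a polymorphic pseudogene). Its 4 nonINS control libraries held 23.8, 11.8, 10.9 and 7.39 CPM. In INS controls it ran from 10.04 to 24.7 CPM with a median of 15.6, and in ieIRKO mice from 7.02 to 18.8 with a median of 10.7. Its message was thus read in all 16 libraries, with 114 to 506 reads, and the groups overlapped. The log2 fold change between ieIRKO mice and INS controls was -0.38, with a 95% confidence interval of -1.07 to 0.31 that takes in both no change and a fall of the size of Nupr1 (adjusted p = 0.691 from edgeR).

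Pnliprp2 encodes a lipase that splits galactolipids and phospholipids (chr19:58759719-58777534, plus strand). Pnliprp2 stood at 35.7, 34.3, 46.5 and 19.9 CPM in the 4 nonINS control libraries. INS controls ran from 13.8 to 36.5 CPM with a median of 28.1. In ieIRKO mice, 5 libraries lay at or below 15.97 CPM and replicate 1 at 38.9. The difference from INS controls was not called (-0.56, 95% confidence interval -1.22 to 0.10, adjusted p = 0.526 from edgeR), nor was that from nonINS controls (-0.93, SE 0.34, adjusted p = 0.0795 from edgeR). Without ieIRKO replicate 1 the former was -0.95 (adjusted p = 0.0955 from edgeR) and the latter -1.32 (adjusted p = 0.00287 from edgeR). Without nonINS control replicate 4 the difference from nonINS controls was -1.13 (adjusted p = 0.0494 from edgeR).

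Clps and Pnliprp2 are best known from the exocrine pancreas, so the wall was searched for other pancreatic acinar genes. Of 19 such genes, 12 had at most 3 reads in any library, among them Prss1, Pnlip, Cpa1, Cela2a and Amy2a5. Only Sycn, Rnase1 and Cela1 had enough reads to be tested, and all 3 fell with insulin in the control genotype, with log2 fold changes of -2.27, -1.77 and -0.89 (adjusted p = 0.00437, 0.00907 and 0.00420 from edgeR), where 6.76% of all genes were called lower. The value of Clps there was 0.61 and that of Pnliprp2 -0.37, neither of them called. Between ieIRKO mice and INS controls, where Clps fell, none of the 3 was called (-0.36, 0.63 and 0.05). Against nonINS controls, where 7.59% of all genes were called lower, Sycn (-2.63, adjusted p = 0.00172 from edgeR) and Cela1 (-0.84, adjusted p = 0.00530) were called lower, as was Clps, and Pnliprp2 (-0.93) was not. The part of pancreatic RNA in the values of Clps and Pnliprp2 was not tested.

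Alpha-defensins come from the same cells, and each gene was set against the summed counts of the 22 alpha-defensin genes of its own library. This log2 ratio does not depend on library size, and 30 such ratios were tested by exact two-sided permutation, with Benjamini-Hochberg adjustment over the 30. The smallest p that the group sizes allow is 0.00476 for 4 against 6 libraries and 0.00216 for 6 against 6. The summed alpha-defensins themselves were at 12846, 19704 and 8581 CPM on average in nonINS controls, INS controls and ieIRKO mice.

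Lyz1 lay lower relative to the alpha-defensins in each comparison, with no overlap of the groups. With insulin its own level was not called different. The difference in its log2 ratio was -0.54 (SE 0.063) with insulin, -1.11 (SE 0.074) for ieIRKO mice against INS controls and -1.64 (SE 0.055) against nonINS controls (exact permutation p = 0.00476, 0.00216 and 0.00476, adjusted p = 0.0119 each). Clps was also lower relative to them in ieIRKO mice than in INS controls (-0.58, SE 0.070, exact permutation p = 0.00216, adjusted p = 0.0119). Between the control groups its ratio was not called different (0.05, SE 0.15, exact permutation p = 0.719). Ang4 was lower by a smaller amount and with overlap (-0.46, SE 0.15, exact permutation p = 0.0173, adjusted p = 0.0289), a call lost when any 1 of 7 libraries was left out. Against nonINS controls the ratios of Ang4 (-0.65, SE 0.11, exact permutation p = 0.00952, adjusted p = 0.0190) and Clps (-0.54, SE 0.15, exact permutation p = 0.00476, adjusted p = 0.0119) were lower in all 6 ieIRKO libraries than in any control library, and both calls held when any 1 library was left out.

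Mmp7 and Mptx2 moved the other way. Relative to the alpha-defensins they were higher in all 6 ieIRKO libraries than in any INS control library, by 1.16 (SE 0.14) and 1.09 (SE 0.14) on the log2 scale (exact permutation p = 0.00216 and adjusted p = 0.0119 for each). Their own levels overlapped between these groups, and the alpha-defensin sum was 2.30-fold lower. The ratios of Pla2g2a (0.79, SE 0.26, exact permutation p = 0.0173, adjusted p = 0.0289) and Habp2 (0.35, SE 0.13, exact permutation p = 0.0303, adjusted p = 0.0478) were also higher in this comparison, with overlap of the groups. These calls were lost when any 1 of 6 and any 1 of 9 libraries was left out. Against nonINS controls the ratios in ieIRKO mice were higher by 0.82 for Mmp7 without overlap (SE 0.18, exact permutation p = 0.00476, adjusted p = 0.0119) and by 0.32 for Mptx2 with overlap (SE 0.13, exact permutation p = 0.00952, adjusted p = 0.0190). With the mean of log2 CPM of the alpha-defensin genes as denominator, that of Mptx2 was not called (0.26, adjusted p = 0.0683), and without nonINS control replicate 3 it was 0.21 (adjusted p = 0.0397). Mptx2 also had a lower ratio with insulin in the control genotype (-0.76, SE 0.18, exact permutation p = 0.00952, adjusted p = 0.0190), as had Pnliprp2 (-0.97, SE 0.26, exact permutation p = 0.00476, adjusted p = 0.0119).

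Itln1 rose beyond the alpha-defensins with insulin (0.93, SE 0.29, exact permutation p = 0.00476, adjusted p = 0.0119). Between ieIRKO mice and INS controls its ratio differed by -0.16 (SE 0.070, exact permutation p = 0.0390, adjusted p = 0.0584), and it was called with the mean of log2 CPM as denominator (-0.19, adjusted p = 0.0361) and without ieIRKO replicate 4 (-0.20, adjusted p = 0.0244). With that denominator the ratio of Mmp7 was also called lower with insulin (-0.37, adjusted p = 0.0429), against -0.34 (adjusted p = 0.0833) with the sum. In ieIRKO mice the ratios of Itln1 and Habp2 were higher than in nonINS controls without overlap, by 0.76 (SE 0.30) and 0.72 (SE 0.15) (exact permutation p = 0.00476 and adjusted p = 0.0119 for each). Without nonINS control replicate 4 the value of Itln1 was 0.49 (adjusted p = 0.0255). The levels of Itln1 and Habp2 themselves were not called different between ieIRKO mice and nonINS controls. The ratio of Nupr1 differed by -0.52 with insulin, with overlap of the groups (SE 0.21, exact permutation p = 0.0143, adjusted p = 0.0268), a call lost when any 1 of 8 of the 10 libraries was left out.

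**Figure D3:**
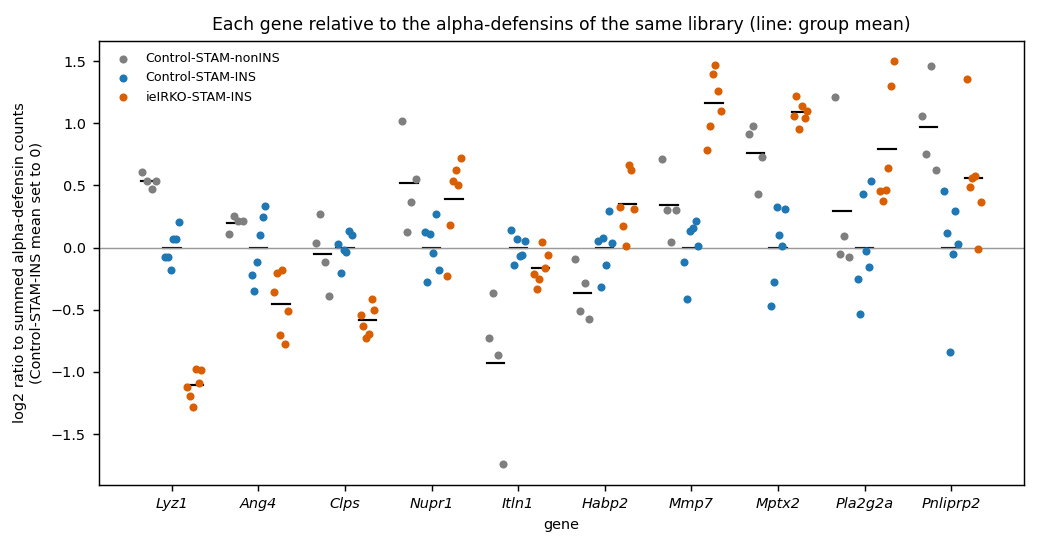
Log2 ratio of each gene's count to the summed counts of 22 alpha-defensin genes in the same library (y axis), set so that the INS control mean is 0. Points are libraries, and black lines group means. The 6 ieIRKO points of Lyz1 and Clps lie below the INS control points, and those of Mmp7 and Mptx2 lie above them by about the same amount as each other (1.16 and 1.09).

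Set against 10 genes that all intestinal epithelial cells express, such as Epcam, Cdh1, Vil1 and Krt8, the falls in ieIRKO mice kept about the same size. The log2 ratio differed from INS controls by -2.20 (SE 0.22) for Lyz1, -1.55 (SE 0.24) for Ang4, -1.68 (SE 0.21) for Clps and -1.26 (SE 0.17) for Itln1, each without overlap (exact permutation p = 0.00216, adjusted p = 0.0130 over 30 ratios). For Habp2 and Nupr1 it differed by -0.74 and -0.71, with overlap (exact permutation p = 0.00433 and adjusted p = 0.0130 for each). Mmp7 (0.07, SE 0.16) and Mptx2 (-0.0094, SE 0.26) were not called different (exact permutation p = 0.719 and 0.968).

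Levels can be compared between genes only per length. Levels per length were computed as reads per kilobase of exon at a common library size (RPKM), from the annotated exons. In nonINS controls, Lyz1 was the highest with 2004 ± 373 RPKM (SD, n = 4), Itln1 followed with 286 ± 143, and Habp2 was the lowest with 1.59 ± 0.383. Ang4, Mptx2 and Mmp7 lay between, at 170 ± 34.0, 130 ± 39.3 and 76.3 ± 20.8. Itln1 overlapped Ang4, Ang4 overlapped Mptx2 and Mptx2 overlapped Mmp7. Mmp7 did not overlap Clps, the next below it.

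The order changed in ieIRKO mice. In INS controls, Lyz1 (2127 ± 518 RPKM, SD, n = 6) and Itln1 (748 ± 137) stood apart from each other and from the rest, with Ang4 next at 228 ± 57.4. In ieIRKO mice, Lyz1 (429 ± 96.0, SD, n = 6) overlapped Itln1 (292 ± 58.9), and Ang4 (73.0 ± 20.05) came after Mptx2 (107 ± 23.5) and Mmp7 (87.6 ± 9.40). Mptx2, Mmp7 and Ang4 overlapped each other in this order. Clps at 54.5 ± 9.11 stood clear of its neighbours in INS controls, and at 16.1 ± 4.32 in ieIRKO mice it overlapped Pla2g2a.

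**Figure D4:**
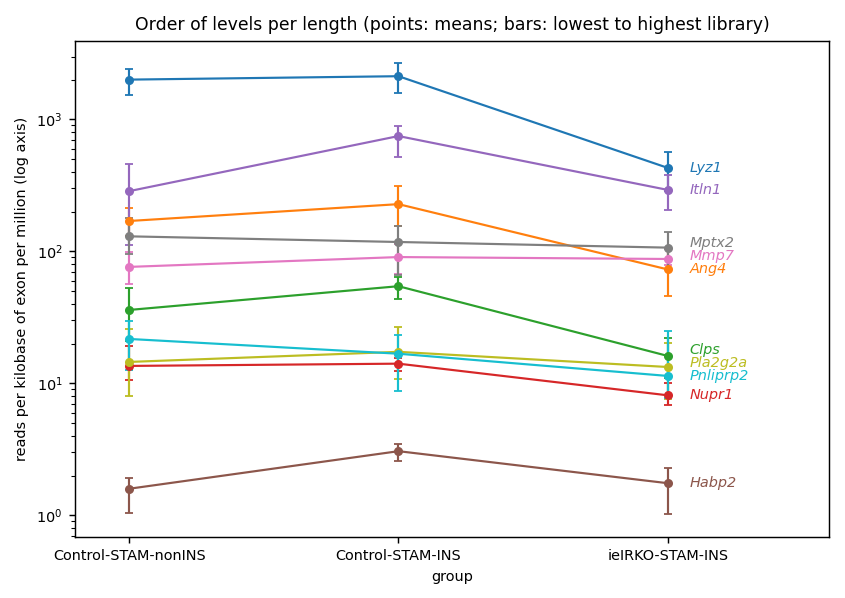
Mean level per length of the 10 genes in the 3 groups, in RPKM on a log axis, with bars from the lowest to the highest library. Lines join the same gene across groups. Lyz1 is the highest in each group and falls to the range of Itln1 in ieIRKO mice, and Ang4 passes from above to below Mptx2 and Mmp7.

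Genes were ranked by how like their log2 levels were to each member's over the 16 libraries, and the closest are named here. These values include the group differences that also define the 3 patterns. As a description, the 3 closest to Ang4 and to Clps were all alpha-defensins, with Pearson's r up to 0.97 (Defa21) and 0.98 (Defa23). Those closest to Lyz1 were Defa21 (0.94), Defa22 (0.93) and Gm15292 (0.90), and Nupr1 was led by Gm15292 (0.86). Itln1 and Habp2 were led by Gm14851 (0.91 and 0.87), and to each other they had an r of 0.93. Gm15292 (chr8:21249754-21250556) and Gm14851 (chr8:21095074-21096050) lie among the alpha-defensin genes, which are near-identical copies, so the reads of any single gene there are uncertain.

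The other genes were most like genes outside that cluster. Mmp7 was closest to Spink4 (0.79), a goblet cell peptide, and Pla2g2a to Mlx (0.83), with Pla2g2f of its own family next (0.77). Pnliprp2 was closest to Scgb2b17 (0.92), and Mptx2 to 4930458D05Rik (0.77). When each group's mean was removed, Lyz1 and Mmp7, which had an r of 0.04 over all libraries, had 0.68 within groups, and Lyz1 and Mptx2 went from 0.42 to 0.84. The r of Nupr1 with Gm15292 went from 0.86 to 0.56, and those of Ang4 with Defa21 and Clps with Defa23 to 0.85 and 0.92. All these libraries share the same groups and scaling, and the values carry no test.

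Of 15 regulators and niche signals of Paneth cells, 0 were called between ieIRKO mice and INS controls by edgeR, and 1 had an unadjusted p under 0.05. Over all genes 0.0393% were called higher and 0.183% lower there, so 0 called in this list or in those below is near the background. The list includes Sox9 and Atoh1, which direct the secretory and Paneth fates, Gfi1, Ephb3, which positions Paneth cells at the crypt base, and Xbp1. With insulin in the control genotype, where 3.73% of all genes were called higher and 6.76% lower, 3 of the 15 were called lower: Ephb3 (-0.71, adjusted p = 0.00407 from edgeR), Sox9 (-0.58, adjusted p = 0.0144) and Atoh1 (-0.56, adjusted p = 0.0367). In the same comparison, of 14 tested genes of secretory granules and protein folding, Bhlha15 (1.26, adjusted p = 0.00248 from edgeR) and Rab27b (0.43, adjusted p = 0.0397) rose, and Chga (-0.92, adjusted p = 0.0197) and Creb3l1 (-0.47, adjusted p = 0.0332) fell. None of these 14 was called in ieIRKO mice against INS controls, and 0 had an unadjusted p under 0.05. Against nonINS controls, 5.74% of all genes were called higher and 7.59% lower. Of the 15 regulators, Gfi1 was called higher there and Sox9 and Ephb3 lower, and 7 had an unadjusted p under 0.05. Of the 14 granule and folding genes, Bhlha15 was called higher there and Chga lower.

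Paralogs of the 10 genes were few in these libraries. Of the 24 paralogs listed, 21 were in the files and 10 had enough reads to be tested, and 0 of these were called between ieIRKO mice and INS controls by edgeR (3 at an unadjusted p under 0.05). Of the 10 tested, 3 were called lower with insulin in the control genotype, beside 6.76% of all genes: Mmp3 (-1.25, adjusted p = 0.0292 from edgeR), Plau (-1.18, adjusted p = 0.0149) and Ang (-0.49, adjusted p = 0.0443). The median of the 10 was -0.040. Mmp10 gave 0.27 and Pla2g2f -0.14 between ieIRKO mice and INS controls (adjusted p = 0.369 and 0.828 from edgeR), and Hgfac, a protease like Habp2, gave -0.027 (adjusted p = 0.960).

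Markers of other cell types were read beside these results. Between ieIRKO mice and INS controls, 0 of 8 tested goblet cell genes, 0 of 10 enterocyte genes, 0 of 10 pan-epithelial genes, 0 of 8 crypt stem and proliferating cell genes and 0 of 9 smooth muscle genes were called by edgeR. Those with an unadjusted p under 0.05 were 1, 1, 1, 0 and 0. All 5 ileal genes in the files, Fabp6 and Slc10a2 among them, were read in every group. Between ieIRKO mice and INS controls all 5 had negative log2 fold changes (median -0.25), 1 of them with an unadjusted p under 0.05. Of the 10 enterocyte genes, 9 had negative log2 fold changes there (median -0.25). Against nonINS controls, 7.59% of all genes were called lower and 5.74% higher. There, Fabp6 (-0.59) and the enterocyte genes Mgam (-0.72) and Treh (-1.25) were called lower, and the goblet cell gene Clca3b (0.67) was called higher. The summed level of 5 B and plasma cell genes was 956 to 1539.5 CPM in INS controls and 1571 to 3111 in ieIRKO mice. All 5 had positive log2 fold changes with an unadjusted p under 0.05, and 0 were called. Against nonINS controls, where Lyz1, Ang4, Clps and Nupr1 were also lower, Jchain (0.87), Cd79a (1.86) and Mzb1 (1.29) were called higher. The part of these cells in the results was not tested.

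ieIRKO replicates 2 and 3 stood apart in Lyz2 and in 3 B cell genes. Lyz2 had 3130 and 3280 reads there against 852 to 1635 in the other 14 libraries, and Cd79a, Cd79b and Ms4a1, genes of the B cell receptor complex and surface, summed to 270.01 and 170.3 CPM against 15.5 to 47.2. They did not stand apart in the sum of all 5 B and plasma cell genes, which was 1571 and 1967 CPM there and 1843 to 3111 in the other 4 ieIRKO libraries. Of the 8 macrophage genes, Lyz2 among them, 0 were called between ieIRKO mice and INS controls by edgeR, 1 had an unadjusted p under 0.05, and the median log2 fold change was 0.077. The fold changes were therefore recomputed without these 2 libraries. Lyz1 (-2.19, adjusted p = 2.98e-05 from edgeR), Ang4 (-1.59, adjusted p = 0.00360) and Clps (-1.64, adjusted p = 0.00840) were still called against INS controls. Itln1 (-1.23, adjusted p = 0.236) and Nupr1 (-0.71, adjusted p = 0.117) kept their sign but were not called with 4 libraries against 6.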

How the data were processed

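The data are RNA sequencing of the whole ileal wall of 16 mice. Per the labels and the study's methods, libraries were made with the NEBNext Ultra Directional kit and reads were mapped to GRCm38 with CLC Genomics Workbench 21.0.3. The authors deposited 1 table per mouse with the count of reads per gene, as whole numbers and not normalized. The strand setting and the handling of reads that match several genes are not given in the sources used here.

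The counts were analysed with edgeR 4.0.16 in R 4.3.3: filterByExpr (minimum count 10, minimum total 15) left 15267 of 22872 genes with a count, sizes were scaled by TMM, and the quasi-likelihood model (robust) took the 3 groups together. Adjusted p-values are Benjamini-Hochberg over all genes tested, with calls under 0.05. CPM follow TMM, and log2 CPM add a prior count of 2. Ratios of counts add 0.5 and were tested by exact permutation with scipy 1.17.1 and numpy 2.4.6. A further B cell marker gene is not reported here.

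Genes were matched to GENCODE M21 by name (97.5% of names found), and promoters came from RefSeq on GRCm38.p6. Totals ran from 13288018 to 22215382 reads, and counting error was not set against the spread between libraries. The 10 genes, the marker lists and the tests were chosen with earlier results of these data known, and the motifs, the 50-base words and the sequences shown were chosen after seeing the files. Named genes were the 10, Insr, the summed alpha-defensins, tested paralogs, called genes of the other lists (up to 8 per list) and the 3 genes most like each of the 10. Per-library reads of Lyz2 and of 3 B cell genes, and the examples of unread pancreatic genes, were chosen after their values were seen. Alternatives were DESeq2 1.42.0, other scalings and filters, only the groups compared, library sizes without the 10 genes and the alpha-defensins, replicate numbers as a block, and libraries left out.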

Additional observations from a re-analysis of the deposited data

Results flagged for a closer look

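Pnliprp2 in ieIRKO replicate 1 stood at 38.9 CPM, while the next highest of the 6 ieIRKO libraries was at 15.97. Its distance to the nearest library was 0.857 of the group's whole range, which is more than Dixon's 95% limit allows. Over the 10 genes and the summed alpha-defensins, 33 groups were examined in this way, of which chance alone would single out 1.65, and 1 was found. In the same library Lyz1, Ang4, Clps, Itln1 and Mptx2 were also the highest of their group, at 721, 73.6, 13.5, 435 and 112 CPM, as were the summed alpha-defensins at 11573 CPM, without passing that limit.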

How the results depend on the processing

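Of 260 fold changes of the 10 genes recomputed under other tests, scalings, filters, fits and without ieIRKO replicates 2 and 3, 251 kept their direction and their side of the threshold, as did 298 of 320 that left out 1 library. Of the ratios, 55 of 60 kept both with the mean of log2 CPM as denominator. When 1 library was left out, 569 of 640 ratios kept both, 40 lost their call, 12 gained one and 19 changed sign. The labels' replicate numbers are shared by the groups, but same-numbered libraries did not deviate together (r from -0.094 to 0.18 over 14 pairs, 4 of them over 0.1, and 3 of 16 libraries correlated best with their own number). With the replicate number as a block, 3 of the 10 genes were called between ieIRKO mice and INS controls in place of 5, with Itln1 (adjusted p = 0.0948 from edgeR) and Nupr1 (0.0625) lost, and 2 and 4 in the other comparisons, as without it. The same 3 genes were called without ieIRKO replicates 2 and 3. Leaving out 1 library gave 2 to 3, 4 to 6 and 4 to 5 called genes in the comparisons of insulin, of ieIRKO mice with INS controls and of ieIRKO mice with nonINS controls.

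Itln1 was also lost without a filter on low counts (adjusted p = 0.0615 from edgeR). DESeq2 also called Pnliprp2 in ieIRKO mice against nonINS controls (adjusted p = 0.0249), and Habp2 was called against INS controls without ieIRKO replicate 1 (adjusted p = 0.0492 from edgeR). Over all genes, calls with insulin went from 1602 to 925 with the replicate block and 824 without nonINS control replicate 1, and those between ieIRKO mice and INS controls from 34 to 123 with DESeq2. Calls between ieIRKO mice and nonINS controls went from 2036 to 1038 with only these groups fitted, 933 with the block, 1270 without replicates 2 and 3 and 1093 without nonINS control replicate 1. The cause was not tested.

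Values near 0 changed sign. Without ieIRKO replicates 2 and 3, Mmp7 was at 0.011 against INS controls and Pla2g2a at 0.12 against nonINS controls. With the mean of log2 CPM as denominator, the pan-epithelial ratios with insulin were 0.052 for Lyz1 and 0.073 for Nupr1. Leaving out 1 library moved the fold change with insulin from -0.023 to 0.20 for Lyz1, from -0.26 to 0.062 for Mptx2 and from -0.048 to 0.27 for Nupr1, that of Mmp7 against INS controls from -0.12 to 0.030, and those against nonINS controls from -0.24 to 0.37 for Itln1, from -0.33 to 0.31 for Pla2g2a and from -0.017 to 0.26 for Habp2. Alpha-defensin ratios ranged from -0.42 to 0.011 for Pla2g2a and from -0.066 to 0.15 for Clps with insulin, and from -0.26 to 0.040 for Nupr1 in ieIRKO mice against nonINS controls. Pan-epithelial ratios with insulin ranged from -0.16 to 0.10 for Nupr1, from -0.032 to 0.24 for Mmp7 and from -0.15 to 0.019 for Lyz1. Against INS controls they ranged from -0.036 to 0.15 for Mmp7 and from -0.18 to 0.10 for Mptx2, and against nonINS controls from -0.32 to 0.16 for Pla2g2a, from -0.12 to 0.35 for Itln1 and from -0.048 to 0.23 for Habp2. Depth limits Habp2 most, which had 53 reads in its lowest library.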
